A study of Mus musculus with 12 samples.

Results

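Mammalian DNA methylation is laid down and removed by a small set of enzymes, and this account follows 8 of their genes, Dnmt1, Dnmt3a, Dnmt3b, Dnmt3l, Uhrf1, Tet1, Tet2 and Tet3, in cultured mouse embryonic stem cells that have or lack the transcription factor Tcf3. Every probe set (a group of short probes that reports on a transcript) annotated to exactly 1 of these symbols was taken, which gave 20 probe sets of the 45037 on the array that are not array controls, for 8 of 18193 named genes. All 20 passed a filter on low values, which kept 28483 probe sets in all.

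Dnmt3a and Dnmt3b add methyl groups to unmethylated CpG sites, Dnmt3l has no catalytic activity of its own and acts as their cofactor, and Uhrf1 brings Dnmt1 to newly replicated DNA so that the methylation pattern is copied to the new strand. The Tet proteins oxidise 5-methylcytosine, after which the mark can be lost through replication or through base excision repair. Embryonic stem cells are a cell type in which both arms are active, and naive pluripotency is known for lower methylation and for lower Dnmt3a and Dnmt3b levels than the primed state that follows it.

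The cells were Tcf3+/+ (wild type, WT) or Tcf3-/- (knockout, KO), where Tcf3 stands for the gene now called Tcf7l1, a DNA-binding partner of beta-catenin in the Tcf/Lef family. All of them were grown on gelatin without feeder cells, in medium with 15% serum and 1000 U/ml of the cytokine Lif, and 6 of the arrays came from cells given 50 ng/ml recombinant Wnt3a for 24 h before RNA isolation. This gave 4 groups of 3 arrays, 12 in all: WT in control medium, KO in control medium, WT with Wnt3a and KO with Wnt3a. The labels name no cell line and do not say whether replicates were separate cultures, so genotype cannot be told apart from any other difference between the cells, and p-values measure only how far these arrays spread, a spread that may be technical.

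Tcf7l1 itself was lower in KO cells at both of its probe sets in control medium, by 2.60-fold (adjusted p = 1.34e-06) and 3.39-fold (adjusted p = 7.35e-08), and stayed above the filter level of 5.56 log2 units. The sources used here do not say where these probes lie relative to the deleted part of the gene. All 10 embryonic stem cell markers, among them Pou5f1, Sox2 and Nanog, were above the filter level on every array. Arrays of a group correlated with each other at r between 0.995 and 0.998 over all probe sets that are not array controls. RNAs used as labelling and hybridisation controls differed between media. Dap read 4.25, below the filter level, on the 6 control-medium arrays and 10.95 on the 6 Wnt3a arrays (log2 intensity). In any comparison of media, Wnt3a and the preparation of the samples cannot be told apart. The difference between the 3′ and 5′ probe sets of the actin control, a sign of RNA length, was 0.18 to 0.24 in WT and 0.31 to 0.41 in KO control medium and 0.24 to 0.27 against 0.36 to 0.41 with Wnt3a (log2), so it moved with genotype. The same difference for the Gapdh control overlapped between genotypes, at -0.01 to 0.04 in both in control medium and -0.10 to -0.08 in WT against -0.08 to -0.04 in KO cells with Wnt3a, and was lower on every Wnt3a array than on any control-medium array. The part of RNA length in the results was not tested.

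The promoters of Tet2, Dnmt3b and Tet1, the 3 genes whose widest-separating probe set differed most between genotypes in control medium, are shown first, because the groups differ in a factor that binds DNA and because CpG sites are the substrate of these enzymes. Each stretch covers the 250 bases before the single RefSeq start of the gene (assembly GRCm38.p6), 5′ to 3′ on the strand of the gene, with every CpG dinucleotide in capitals. Dnmt3b lies on the plus strand at chr2:153649199-153649448, Tet1 on the minus strand at chr10:62887325-62887574 and Tet2 on the minus strand at chr3:133544391-133544640.
Dnmt3b: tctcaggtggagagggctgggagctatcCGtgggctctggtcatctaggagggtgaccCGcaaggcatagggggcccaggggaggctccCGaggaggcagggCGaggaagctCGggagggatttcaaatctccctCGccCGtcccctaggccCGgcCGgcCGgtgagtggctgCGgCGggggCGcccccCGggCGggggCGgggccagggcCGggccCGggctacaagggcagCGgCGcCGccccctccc
Tet1: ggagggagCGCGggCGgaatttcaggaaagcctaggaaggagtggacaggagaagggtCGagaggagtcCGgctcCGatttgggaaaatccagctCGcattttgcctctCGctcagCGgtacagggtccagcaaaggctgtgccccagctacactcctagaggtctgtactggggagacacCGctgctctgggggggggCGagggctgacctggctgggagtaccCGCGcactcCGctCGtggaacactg
Tet2: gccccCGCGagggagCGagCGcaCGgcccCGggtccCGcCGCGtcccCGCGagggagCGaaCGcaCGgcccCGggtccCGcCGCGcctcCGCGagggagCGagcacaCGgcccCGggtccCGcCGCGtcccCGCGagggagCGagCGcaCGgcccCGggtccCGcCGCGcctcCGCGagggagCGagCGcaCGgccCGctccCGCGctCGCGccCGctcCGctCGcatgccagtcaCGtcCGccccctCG
In these 250 bases Dnmt3b held 21 CpG sites, Tet1 held 15 and Tet2 held 51.

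Over the longer window of 300 bases that runs from 250 before to 50 after the start, Tet2 held 57 CpG sites, more than in 99.8% of the 32841 RefSeq promoter windows, whose median was 7. Dnmt3b held 30, more than 88.3% of windows, and Tet1 held 17, more than 68.6%. Dnmt3l was at the other end, with 6, 4 and 3 at its 3 starts. The Tcf/Lef core motif was searched on both strands as CTTTG followed by any pair of A or T, which makes 4 spellings that cannot overlap on a strand. Of the 15 windows of the 8 genes, 1 held a match, whereas 16.9% of all windows held at least 1. It was spelled CTTTGAA on the strand opposite to the gene, 199 bases before the first listed start of Dnmt1. A window without a match says only that these letters are not in those 300 bases. The member windows held from 51.3% to 82.3% G and C, against a median of 52.7% over all windows. The windows of starts 1 and 2 of Dnmt3a also overlap. The count therefore does not show that the motif is rarer in these genes.

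In control medium, KO cells had less Dnmt3b and more Tet2, Tet1 and Dnmt3l transcript than WT cells, with a smaller rise of Uhrf1. At an adjusted p under 0.05 (limma, Benjamini-Hochberg over all 28483 probe sets), 11 of the 20 probe sets were called, 9 higher and 2 lower in KO cells. The background in that comparison was 36.2% of all tested probe sets in either direction, 18% higher and 18.2% lower. The median change over the 20 was 0.25 log2 units, against 0.03 over all tested probe sets, and the median size of change was 0.28 against 0.17. With each gene represented by its brightest probe set, 5 of the 8 genes were called, 4 higher and 1 lower, against 40.5% of all 13811 genes tested. In bulk RNA a change in the share of cells that express a gene and a change in RNA per cell cannot be told apart, and this holds for every result here.

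**Figure D1:**
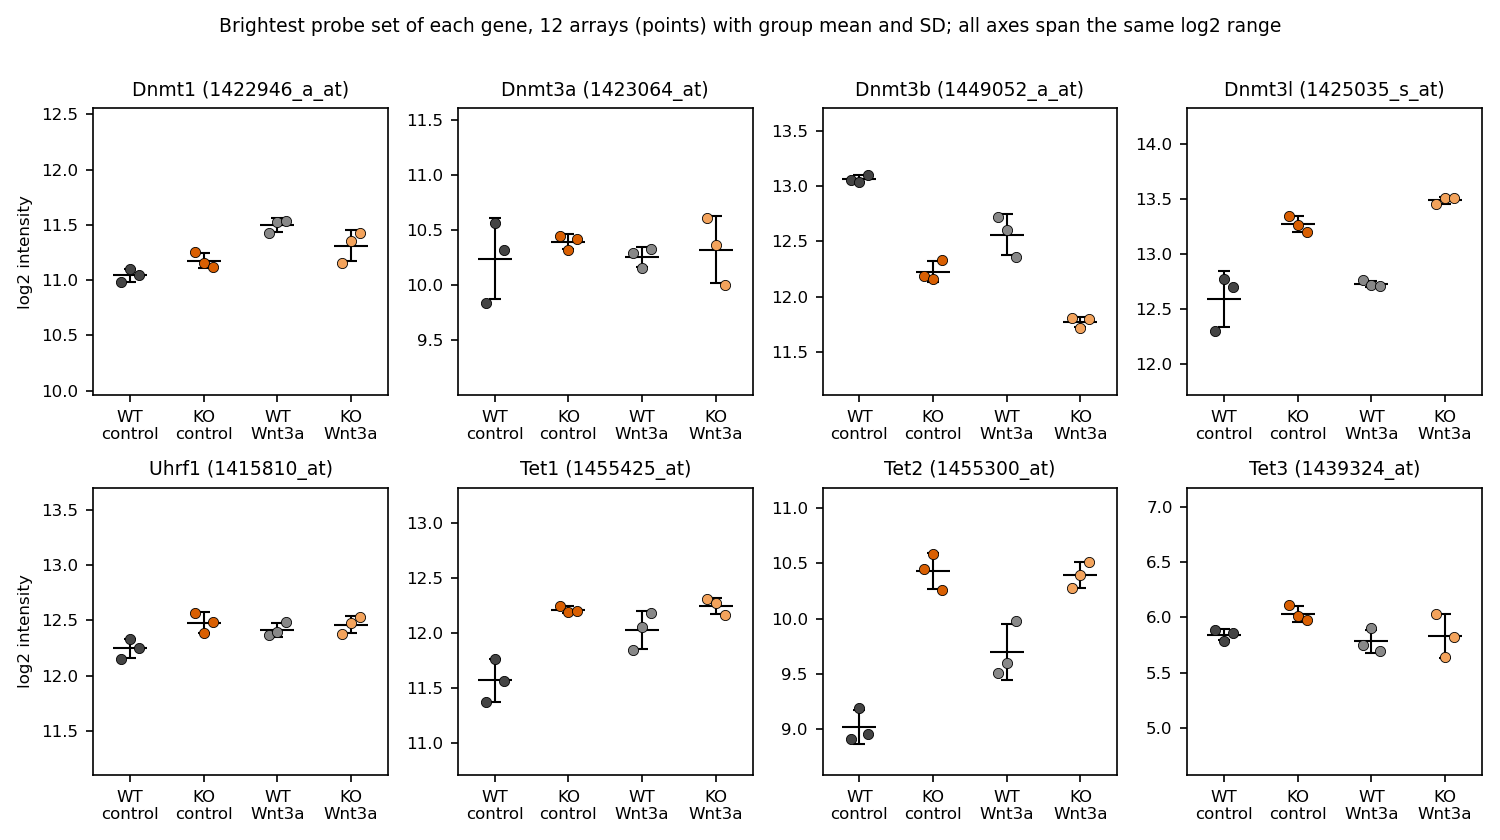
Log2 intensity of the brightest probe set of each of the 8 genes on the 12 arrays (points) in the 4 groups on the x axis, with the group mean and SD (n = 3); the y axes have different origins and the same span. Dnmt3b arrays of KO cells lie below all WT arrays in both media, Tet2 and Dnmt3l arrays of KO cells lie above all WT arrays, and the groups of Dnmt3a and Tet3 lie close together.

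Dnmt3b, a de novo methyltransferase, was the only member with a called fall in KO cells in control medium. At its brightest probe set (1449052_a_at) the log2 intensities were 13.06, 13.04 and 13.10 in WT control medium and 12.19, 12.16 and 12.33 in KO control medium. With Wnt3a they were 12.72, 12.60 and 12.36 in WT cells and 11.80, 11.72 and 11.79 in KO cells. The 4 groups did not overlap at all, with the order WT control, WT Wnt3a, KO control, KO Wnt3a from high to low.

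In KO cells this Dnmt3b signal was lower than in WT cells by 1.79-fold in control medium (log2 change -0.84 ± 0.09, SE, adjusted p = 1.53e-05) and by 1.73-fold in Wnt3a medium (-0.79 ± 0.09, adjusted p = 8.01e-05). Wnt3a medium went with a fall of 0.51 in WT cells (adjusted p = 0.000735) and of 0.46 in KO cells (adjusted p = 0.00259). The difference between the 2 Wnt3a effects was 0.05 with a 95% interval from -0.22 to 0.32, and it did not pass (adjusted p = 0.863).

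The second Dnmt3b probe set (1418351_a_at) gave the same genotype difference and not the same medium difference. It read 11.67, 11.79 and 11.84 in WT control medium against 10.52, 10.50 and 10.65 in KO control medium, and 11.87, 11.56 and 11.42 in WT Wnt3a against 10.57, 10.54 and 10.70 in KO Wnt3a. KO arrays were below WT arrays in both media, by 2.32-fold (adjusted p = 3.56e-06) and 2.02-fold (adjusted p = 4.45e-05). The media overlapped within each genotype, with changes of -0.15 in WT cells (adjusted p = 0.266) and 0.05 in KO cells (adjusted p = 0.755). With the 2 probe sets averaged, the fall with Wnt3a in KO cells was -0.20 (adjusted p = 0.112) and was no longer called. Without array 1 of WT Wnt3a the change at this probe set in WT cells was -0.28 (adjusted p = 0.0267).

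Dnmt3l, the catalytically inactive cofactor, moved opposite to Dnmt3b between genotypes. Its single probe set (1425035_s_at) read 12.30, 12.77 and 12.70 in WT control medium and 13.34, 13.27 and 13.20 in KO control medium. With Wnt3a it read 12.76, 12.72 and 12.71 in WT cells and 13.45, 13.51 and 13.50 in KO cells. All 6 KO arrays were above all 6 WT arrays.

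The rise of Dnmt3l in KO cells was 1.60-fold in control medium (log2 change 0.68 ± 0.10, adjusted p = 0.000253) and 1.69-fold in Wnt3a medium (0.76 ± 0.10, adjusted p = 0.000296). The medium made less difference: 0.14 in WT cells, where the arrays overlapped (adjusted p = 0.306), and 0.22 in KO cells (adjusted p = 0.129), which became a call without array 1 of WT control medium (adjusted p = 0.0203). The suffix _s_at marks probes that can match more than 1 transcript, and this gene has no other probe set here.

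Dnmt3a, the other de novo methyltransferase, is covered by 5 probe sets that did not behave alike, although the platform annotation gives all of them the same source sequence. Over the 12 arrays the correlations between them ran from -0.26 to 0.91 (median 0.47). The brightest (1423064_at) had overlapping groups throughout, with a KO minus WT difference of 0.15 in control medium (95% interval -0.22 to 0.53). Neither 1423064_at, 1423065_at nor 1423066_at was called in any of the 5 comparisons. Without array 2 of WT control medium, 1423066_at was called higher with Wnt3a in WT cells (0.50, adjusted p = 0.0466).

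The remaining probe sets of Dnmt3a were lower in Wnt3a medium. At 1423063_at the values were 8.12, 8.39 and 8.39 in WT control medium and 7.87, 7.74 and 7.71 in WT Wnt3a, and 8.65, 8.59 and 8.58 in KO control medium and 7.95, 8.05 and 7.94 in KO Wnt3a. The media did not overlap in either genotype, and the changes were -0.53 (adjusted p = 0.000357) in WT cells and -0.62 (adjusted p = 0.00024) in KO cells. KO cells were higher by 0.30 in control medium (adjusted p = 0.0117), while the 0.21 in Wnt3a medium did not pass (adjusted p = 0.0889) and passed without array 1 of WT control medium (adjusted p = 0.0414).

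At 1460324_at the Dnmt3a values were 7.48, 7.74 and 7.73 in WT control medium, 7.02, 6.84 and 6.52 in WT Wnt3a, 7.75, 7.59 and 7.78 in KO control medium and 7.14, 7.46 and 7.17 in KO Wnt3a. Arrays with Wnt3a were below those without it in both genotypes. The fall was 0.86 in WT cells (adjusted p = 0.000281) and 0.45 in KO cells (adjusted p = 0.0205), and the second call was lost without any 1 of 4 arrays (adjusted p from 0.06 to 0.0745 without array 1 or 3 of KO control medium or array 1 or 3 of KO Wnt3a). The KO excess of 0.46 in Wnt3a medium (adjusted p = 0.0211) was likewise lost without array 3 of WT Wnt3a (0.33, adjusted p = 0.0693) or array 2 of KO Wnt3a (0.36, adjusted p = 0.0889).

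Of the maintenance pair, Dnmt1 had no called genotype difference at any of its 3 probe sets in either medium, and Uhrf1 had a small one in control medium. Dnmt1 at its brightest probe set (1422946_a_at) read 10.99, 11.10 and 11.04 in WT control medium, 11.25, 11.15 and 11.12 in KO control medium, 11.43, 11.52 and 11.54 in WT Wnt3a and 11.15, 11.36 and 11.42 in KO Wnt3a. WT control medium was lowest and WT Wnt3a highest, and KO cells lay between them, with their media overlapping. The rise with Wnt3a in WT cells was 1.37-fold (0.46 ± 0.08, adjusted p = 0.000691).

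In KO cells the Dnmt1 change with Wnt3a was 0.13 (adjusted p = 0.214), which passed only when array 1 of KO Wnt3a was left out (0.21, adjusted p = 0.0483). KO minus WT was 0.13 in control medium (adjusted p = 0.214) and -0.19 in Wnt3a medium (adjusted p = 0.103), neither called. The other Dnmt1 probe sets carry the suffix _x_at, which marks probes that may cross-hybridise. At 1435122_x_at the rise with Wnt3a in WT cells was 0.24 (adjusted p = 0.0383) and was lost without any 1 of 6 arrays (adjusted p from 0.0506 to 0.123), and 1447877_x_at gave 0.22 (adjusted p = 0.102).

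Uhrf1, which recognises hemimethylated CpG sites, rose slightly in KO cells in control medium at both probe sets. At 1415810_at the values were 12.15, 12.33 and 12.25 in WT and 12.57, 12.38 and 12.48 in KO control medium, which did not overlap, and at 1415811_at they were 10.35, 10.69 and 10.60 against 10.94, 10.68 and 10.87, which did. The changes were 0.23 (adjusted p = 0.0274) and 0.28 (adjusted p = 0.0424). Both calls depended on single arrays: the first was lost without array 1 or 3 of WT control medium (adjusted p = 0.106 and 0.0691) or array 1 or 3 of KO control medium (0.105 and 0.0689). The second was lost without any of the same 4 arrays (adjusted p from 0.0703 to 0.177) and without 3 of the Wnt3a arrays (adjusted p from 0.0506 to 0.0561).

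With Wnt3a the Uhrf1 probe sets parted. Values at 1415811_at were 11.25, 11.23 and 11.33 in WT Wnt3a and 11.02, 11.24 and 11.14 in KO Wnt3a. All of these were above the control-medium arrays of the same genotype, with rises of 0.72 in WT cells (1.65-fold, adjusted p = 0.000149) and 0.31 in KO cells (adjusted p = 0.0344), the latter lost without any 1 of 4 arrays (adjusted p from 0.0692 to 0.125). At 1415810_at the change in WT cells was 0.17 (adjusted p = 0.0895) and in KO cells -0.02 (adjusted p = 0.88). The first of these became a call with median centring (0.24, adjusted p = 0.0316) and with the trended robust prior (adjusted p = 0.0332), and with the 2 Uhrf1 probe sets averaged the rise in WT cells was 0.45 (adjusted p = 0.00111). KO and WT did not differ beyond the threshold in Wnt3a medium at either probe set, with changes of 0.05 (95% interval -0.11 to 0.21) and -0.14 (-0.35 to 0.08).

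Tet2, one of the 5-methylcytosine dioxygenases, showed the widest genotype difference of the 8 genes in control medium. At its brightest probe set (1455300_at) WT control medium read 8.91, 9.19 and 8.95 and KO control medium 10.45, 10.58 and 10.26. WT Wnt3a read 9.50, 9.60 and 9.98 and KO Wnt3a 10.28, 10.39 and 10.51. WT cells in control medium were lowest, WT cells with Wnt3a lay apart above them, and the 2 KO groups overlapped at the top.

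In control medium Tet2 was 2.66-fold higher in KO cells at 1455300_at (1.41 ± 0.13, adjusted p = 5.8e-06) and 3.02-fold higher at 1438781_at (1.59 ± 0.20, adjusted p = 7.11e-05). In Wnt3a medium the KO excess was 0.70 (adjusted p = 0.00231) and 0.84 (adjusted p = 0.011). WT cells with Wnt3a were above WT cells without it, by 0.68 (adjusted p = 0.00145) and 1.13 (adjusted p = 0.00101). In KO cells the Wnt3a change was -0.04 (95% interval -0.32 to 0.25) and 0.37 (-0.07 to 0.81), neither called.

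At the second Tet2 probe set (1438781_at) the spread differed between groups. WT control medium read 7.57, 7.60 and 7.55, KO control medium 9.16, 9.27 and 9.07, WT Wnt3a 8.20, 8.69 and 9.21, and KO Wnt3a 9.23, 9.56 and 9.81. WT Wnt3a spanned the gap between the WT and KO control-medium groups, and its highest array reached into the KO control-medium range.

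Tet1, the dioxygenase known for its high level in embryonic stem cells, was also higher in KO cells in control medium. At the brightest probe set (1455425_at) the values were 11.37, 11.77 and 11.57 in WT and 12.25, 12.19 and 12.20 in KO control medium, and 11.84, 12.05 and 12.18 in WT and 12.31, 12.27 and 12.17 in KO Wnt3a. The genotypes were apart in control medium and overlapped with Wnt3a. The KO excess was 1.56-fold in control medium (0.64 ± 0.10, adjusted p = 0.000418), and the 0.22 in Wnt3a medium did not pass (95% interval -0.01 to 0.45, adjusted p = 0.148).

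At 1429448_s_at Tet1 read 9.69, 10.29 and 9.97 in WT control medium, 10.63, 10.59 and 10.70 in KO control medium, 11.29, 11.53 and 11.65 in WT Wnt3a and 11.57, 11.48 and 11.44 in KO Wnt3a. At 1419896_at the corresponding values were 7.84, 8.58 and 8.33, then 9.29, 9.06 and 9.12, then 9.59, 9.70 and 9.88, then 10.00, 10.05 and 9.87. At both of these, KO was above WT in control medium, Wnt3a arrays were above control-medium arrays in each genotype, and the genotypes overlapped with Wnt3a.

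The Tet1 probe sets thus disagreed on the Wnt3a change in KO cells. It was 0.86 at 1429448_s_at (adjusted p = 0.000634) and 0.81 at 1419896_at (adjusted p = 0.0022), but 0.04 at 1455425_at (95% interval -0.19 to 0.26, adjusted p = 0.829). With the 4 probe sets averaged it was 0.49 (adjusted p = 0.009) and was called. In WT cells all 4 probe sets were called higher with Wnt3a, by 1.51, 1.47 and 0.46 at 1429448_s_at, 1419896_at and 1455425_at (adjusted p from 5.43e-06 to 0.00417). The fourth, 1419897_at, had a WT control-medium mean of 5.37, below the filter level, so its differences from that group are bounds taken against the level. It was at least 1.26-fold higher with Wnt3a in WT cells (adjusted p = 0.00309), and its KO excess in control medium, at least 1.06-fold, did not pass (adjusted p = 0.085) unless array 2 of that WT group was left out (adjusted p = 0.0303).

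**Figure D2:**
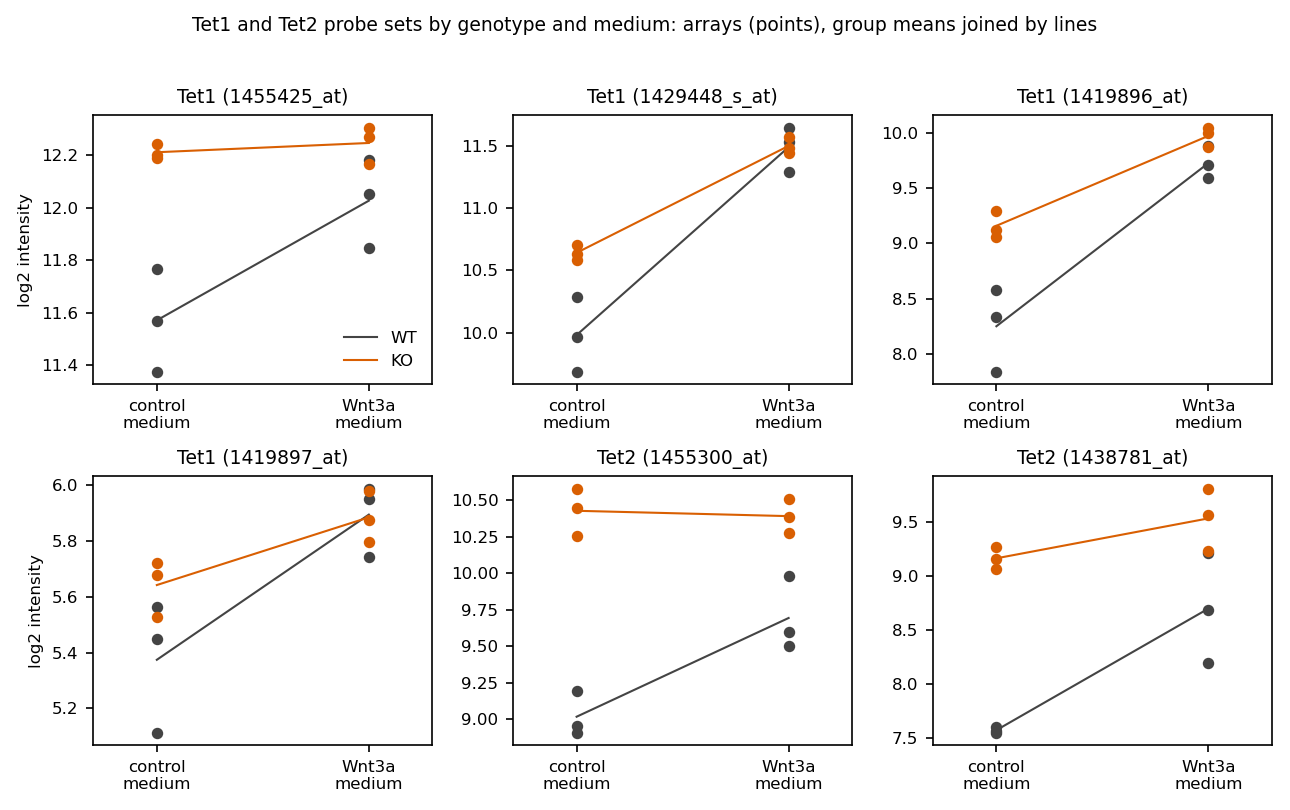
Log2 intensity of the 4 Tet1 and 2 Tet2 probe sets on each array (points) by medium, with group means joined for WT and KO cells; each panel has its own y axis. The gap between KO and WT means is narrower with Wnt3a than in control medium in all 6 panels, although no interaction passed, with adjusted p from 0.0536 to 0.36.

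Tet3, the third dioxygenase, sat close to the filter level in every group. Its single probe set (1439324_at) read 5.88, 5.79 and 5.85 in WT control medium, 6.11, 6.01 and 5.98 in KO control medium, 5.75, 5.90 and 5.69 in WT Wnt3a and 6.03, 5.64 and 5.83 in KO Wnt3a. Only the control-medium pair did not overlap, and none of the comparisons was called. The KO change was 0.19 in control medium (95% interval -0.02 to 0.40) and 0.05 in Wnt3a medium (-0.16 to 0.26). With KO Wnt3a array 1 left out, a fall of 0.30 with Wnt3a in KO cells was called (adjusted p = 0.0242).

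**Figure D3:**
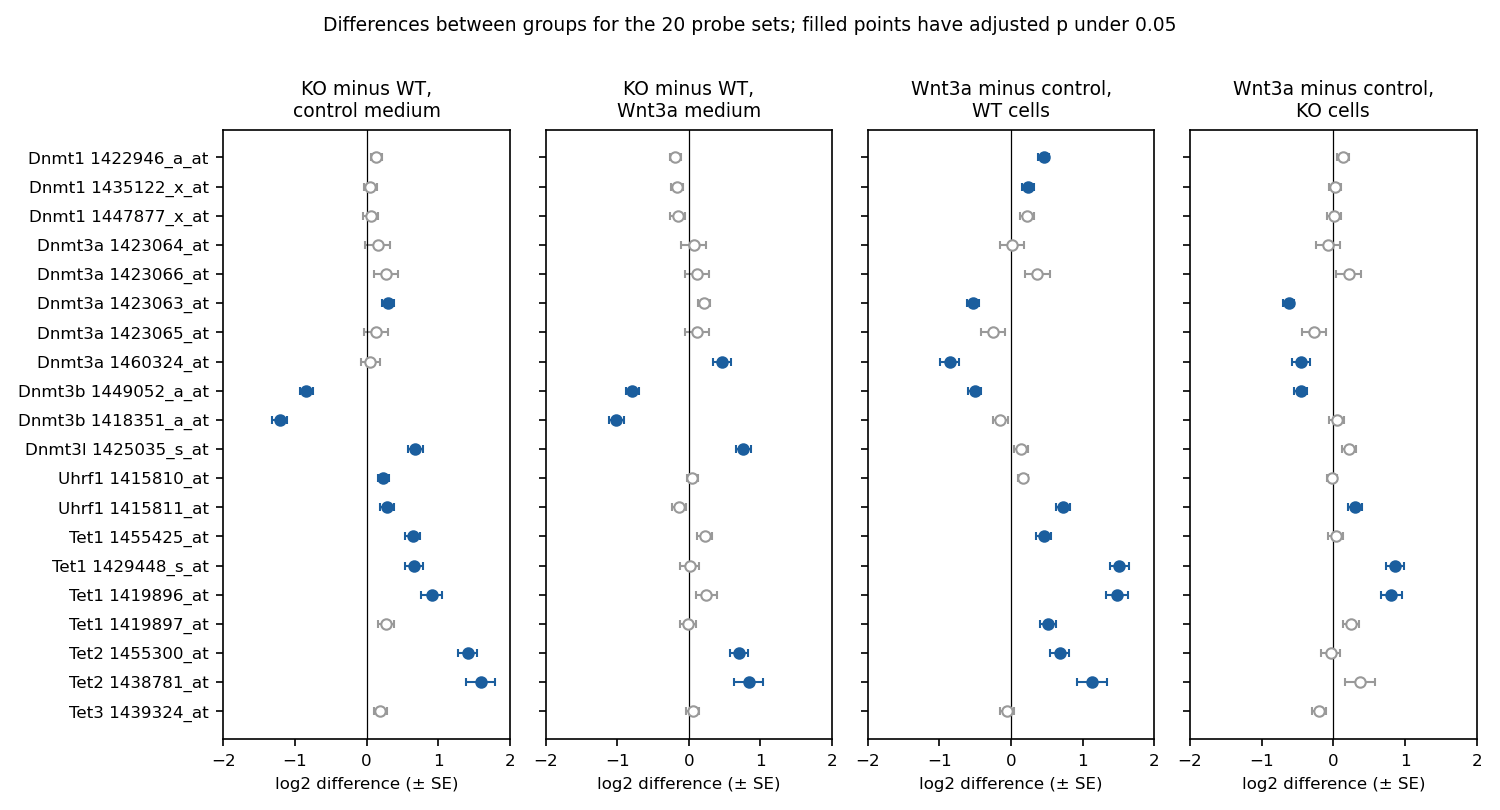
Log2 difference with its SE for the 20 probe sets (rows) in 4 comparisons (panels); filled points have an adjusted p under 0.05. Both Dnmt3b probe sets lie left of 0 in both genotype panels, Dnmt3l and both Tet2 probe sets lie right of 0 in both, and Tet1 is filled in control medium at 3 of its 4 probe sets and in Wnt3a medium at none.

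Across the 4 groups, WT cells in control medium had the lowest mean at 14 of the 20 probe sets. The highest mean was in KO control medium at 7, KO Wnt3a at 6, WT Wnt3a at 5 and WT control medium at 2, the last being the 2 probe sets of Dnmt3b. The matching shares over all tested probe sets were not computed, so these counts cannot say whether the members stand out. Probe sets of the same gene are also not independent. Array 1 of WT control medium was the lowest of its group at 16 of the 20, whereas it was lowest at 44.4% of all tested probe sets, and its mean deviation from the group was -0.17 over the 20 against -0.01 over all tested. Without that array the comparison of genotypes in control medium kept the calls of Dnmt3b, Dnmt3l, Tet2, 3 Tet1 probe sets and 1 of Dnmt3a and lost both of Uhrf1. These 9 calls held without any other single array as well.

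The comparison of media in WT cells called 12 of the 20 probe sets, 9 higher and 3 lower with Wnt3a, against a background of 42.5%, 20.8% higher and 21.7% lower. In KO cells 6 were called, 3 in each direction, against 30.9%, 14.9% higher and 16% lower, a share of the members at the background. The higher ones in WT cells were 2 of Dnmt1, 1 of Uhrf1, all 4 of Tet1 and both of Tet2, and the lower ones were 2 of Dnmt3a and 1 of Dnmt3b. In KO cells the same 3 Dnmt3a and Dnmt3b probe sets were lower, and 1 of Uhrf1 and 2 of Tet1 were higher. By the brightest probe set, 4 of the 8 genes were called in WT cells, 3 higher and 1 lower, against 41.1% of all genes. In KO cells 1 of the 8 was called, lower, against 28.2%.

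The genotypes compared within Wnt3a medium, on arrays separate from those of the control-medium comparison, differed at 6 of the 20 probe sets against a background of 24%, 10.8% higher and 13.2% lower. Both Dnmt3b probe sets were lower in KO cells, and Dnmt3l, both Tet2 probe sets and 1 of Dnmt3a were higher. Of these, 5 had moved the same way with a call in control medium, and the Dnmt3a probe set 1460324_at had not (0.05, adjusted p = 0.786). Fitting only the arrays compared ended the calls of Dnmt3a at 1460324_at (adjusted p = 0.0679) and Tet2 at 1438781_at (0.067). By the brightest probe set, 3 of the 8 genes were called, 2 higher and 1 lower, against 26.3% of all genes.

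**Figure D4:**
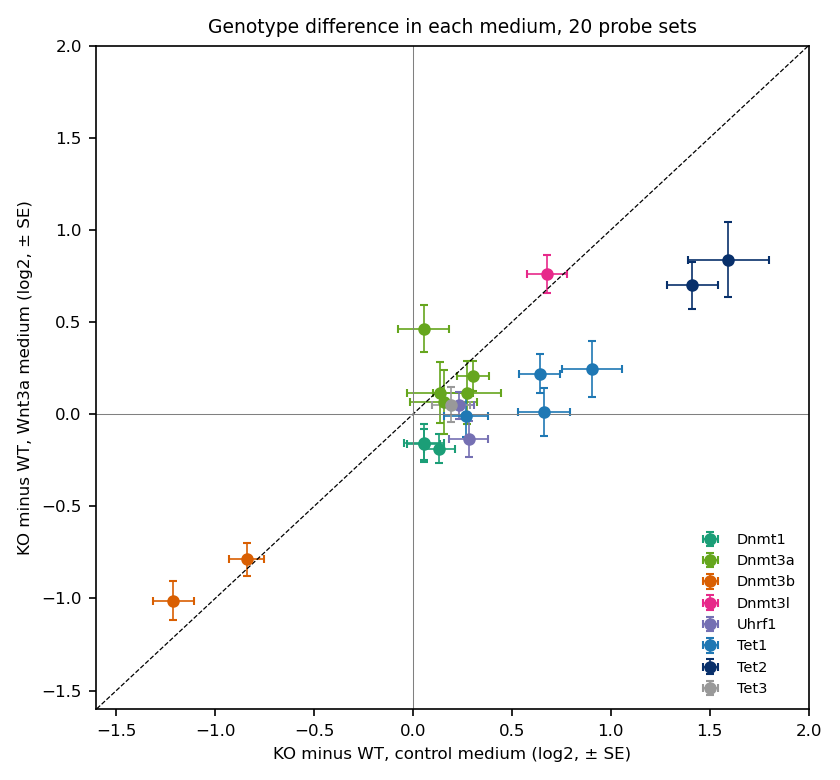
KO minus WT difference (log2, with SE) in control medium (x) and in Wnt3a medium (y) for the 20 probe sets, coloured by gene; the dashed line marks equal differences. Dnmt3b and Dnmt3l lie near the line, with interactions between 0.05 and 0.20, while Tet1 and Tet2 lie below it, with interactions between -0.76 and -0.28.

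Whether the Wnt3a change depends on the genotype was tested as the interaction, the Wnt3a change in KO cells minus that in WT cells. None of the 20 probe sets passed in limma, against a background of 3.58%, and 8 had an unadjusted p under 0.05, against 5757 of the 28483 tested. The estimates for Tet2 were -0.71 at 1455300_at (95% interval -1.11 to -0.31, adjusted p = 0.0536) and -0.76 at 1438781_at (-1.39 to -0.13, adjusted p = 0.165). Those for Tet1 were -0.42, -0.65, -0.66 and -0.28 at 1455425_at, 1429448_s_at, 1419896_at and 1419897_at (adjusted p from 0.0744 to 0.36), the last resting on the WT mean below the filter level. Tet2 at 1455300_at passed without array 2 of WT control medium (adjusted p = 0.0352) or array 1 of WT Wnt3a (0.0292), as did Tet1 at 1429448_s_at (0.0176 and 0.0386). Tet1 at 1419896_at passed without the first of these (0.0311), and Tet2 at 1438781_at without the second (0.0282).

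Among 13063 genes, those whose brightest probe set followed each enzyme most closely over the 12 arrays are given as a description, since all points share the same 4 groups. Dnmt3b ran closest to Dusp6, a phosphatase of ERK (r = 0.996), then Tmem125 (0.994) and Ap1m2 (0.992). Tet2 ran closest to Cdyl2 (0.993), Tcl1, a coactivator of Akt (0.990), and Hormad1, a meiotic chromosome protein (0.989). Tet1 ran closest to Rbm48 (0.991), Hal (0.986) and Eed, a subunit of Polycomb repressive complex 2 (0.983). For Dnmt3l the closest was Ckap2l (0.978), for Uhrf1 Nup98 (0.974) and for Dnmt1 Pdcd11 (0.975). Dnmt3a reached 0.893 with Fastkd5 and Tet3 0.856 with Selplg.

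The partners of these enzymes were followed in 9 lists, each gene by its brightest probe set. The lists were chosen with earlier results of these data known, so their shares are a description and not a test. In the comparison of genotypes in control medium the background over all 13811 genes was 40.5% called, 19% higher and 21.5% lower in KO cells, with a median change of 0.01. Of 15 maintenance partners 5 were higher and 2 lower (median 0.10), and leaving out single arrays gave 3 to 5 higher. Ehmt2, a histone H3K9 methyltransferase, rose by 0.41 (adjusted p = 0.000558) and Pclaf, a PCNA-binding protein, fell by 0.46 (adjusted p = 0.00597). In Wnt3a medium 1 of the 15 was called, against 26.3% of all genes, 12.4% higher and 13.9% lower.

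Of 20 genes for targeting of silencing and imprint protection, 8 were higher and 2 lower in KO control medium (median 0.13; 5 to 9 higher without single arrays). Zfp57, a zinc finger protein that keeps imprints methylated, rose by 1.20 (adjusted p = 6.58e-06), and Dppa3, which shields methylation in the oocyte and early embryo and can keep Uhrf1 from chromatin, fell by 0.76 (adjusted p = 0.00173). In Wnt3a medium Dppa3 was lower in KO cells by 1.86 and Zfp57 higher by 0.46 (adjusted p = 0.0115). Both had a called interaction, -1.11 for Dppa3 (adjusted p = 0.0207) and -0.75 for Zfp57 (adjusted p = 0.0284), the first lost without array 1 of WT control medium or of KO control medium (adjusted p up to 0.0537) and the second without any 1 of 8 arrays (up to 0.0734).

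Of 13 Tet partners and enzymes of 2-oxoglutarate supply, 5 were higher and 2 lower in KO control medium (median 0.15; 3 to 5 higher without single arrays). Prdm14, a factor known to repress the de novo enzymes and to recruit Tet proteins, rose by 1.74 (adjusted p = 1.11e-05) and Nanog by 0.99 (adjusted p = 1.34e-06), and both had called interactions of -1.61 (adjusted p = 0.00825) and -0.74 (adjusted p = 0.00584). Of 17 genes for removal and repair of oxidised bases, 6 were higher and 2 lower (median 0.16). The 2 lower ones, Gadd45g and Gadd45b, are stress-response genes and not glycosylases, and fell by 2.28 (adjusted p = 3.86e-07) and 0.94 (adjusted p = 0.0028).

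The list of methyl-CpG readers also holds subunits of the NuRD repressor complex, such as Mta1, Gatad2a and Chd4. Of the 9 lists it was the only one with no gene called higher in KO control medium. In it 5 of 13 were lower (median -0.05, 3 to 5 without single arrays). These 38.5% compare with 40.5% of all genes called in either direction and 21.5% lower. Mta1 was at -0.67 (adjusted p = 7.59e-05) and Mbd2 at -0.33 (adjusted p = 0.0102). In Wnt3a medium 4 of the 13 were lower, against 13.9% of all genes, and none was higher, against 12.4% (1 to 5 lower without single arrays), with Mta1 at -0.87. Of 18 one-carbon genes, which supply the methyl donor S-adenosylmethionine, 6 were higher and 4 lower (median 0.03; 2 to 4 lower without single arrays). Shmt2, a mitochondrial serine hydroxymethyltransferase, rose by 0.54 (adjusted p = 0.000186) and Phgdh, the first enzyme of serine synthesis, fell by 0.69 (adjusted p = 0.000215).

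Of 19 germline genes whose CpG-island promoters are known to be methylated in somatic cells, 9 were higher and 4 lower in KO control medium (median 0.20; 6 to 9 higher without single arrays), and the same counts, 9 and 4, held in Wnt3a medium, against 12.4% and 13.9% of all genes (6 to 10 higher and 2 to 5 lower without single arrays). Hormad1 rose by 2.22 (adjusted p = 4.42e-06) and Dazl, an RNA-binding protein of germ cells, by 2.15 (adjusted p = 1.17e-06) in control medium. Rhox6 went the other way, with a mean of 8.95 in WT and 7.37 in KO control medium. So did Tdrkh (7.63 and 6.36), Rhox9 (8.71 and 7.55) and Ddx4 (9.33 and 8.40). These 4 were named after their values were seen. The list therefore did not move as a whole. With Wnt3a, 8 were higher and 1 lower in WT cells, and 8 were higher and none lower in KO cells, against backgrounds of 41.1% called (18.7% higher, 22.4% lower) and 28.2% called (13.4% higher, 14.9% lower). Dazl rose by 1.14 in WT cells and 0.91 in KO cells.

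S-phase genes, with which Dnmt1 and Uhrf1 are known to cycle, gave 10 higher and 0 lower of 25 in KO control medium (median 0.13; 6 to 10 higher without single arrays). The largest was Pola1, a catalytic subunit of DNA polymerase alpha, at 1.11 (adjusted p = 3.33e-07), then Orc1 at 0.50 (adjusted p = 0.000122). With Wnt3a in WT cells 15 were higher and 2 lower (median 0.23), with Rfc4 at 0.75. Over all genes 18.7% were higher and 22.4% lower there (median -0.02). In KO cells 9 were higher and 3 lower (median 0.13, 4 to 11 higher without single arrays), against 13.4% and 14.9% of all genes. The part of cell cycle position in the changes of Dnmt1 and Uhrf1 was not tested.

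Of 18 known regulators of the enzymes in stem cells, 11 were higher and 4 lower in KO control medium (median 0.50), led by Tbx3 at 2.54 (adjusted p = 5.53e-07) and Tfcp2l1 at 2.07 (adjusted p = 2.38e-07). The list shares Prdm14 and Nanog with the Tet partners, and Tcf7l1, the targeted gene, is among its lower genes. Of the 18, 9 had a called interaction, all of them negative (7 to 10 negative without single arrays). Over all genes the share was 3.65% in either direction and 1.66% negative. None of the 8 enzymes had a called interaction by the brightest probe set. Because this list was chosen with earlier results of these data known, its share above that of all genes is no independent result.

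**Figure D5:**
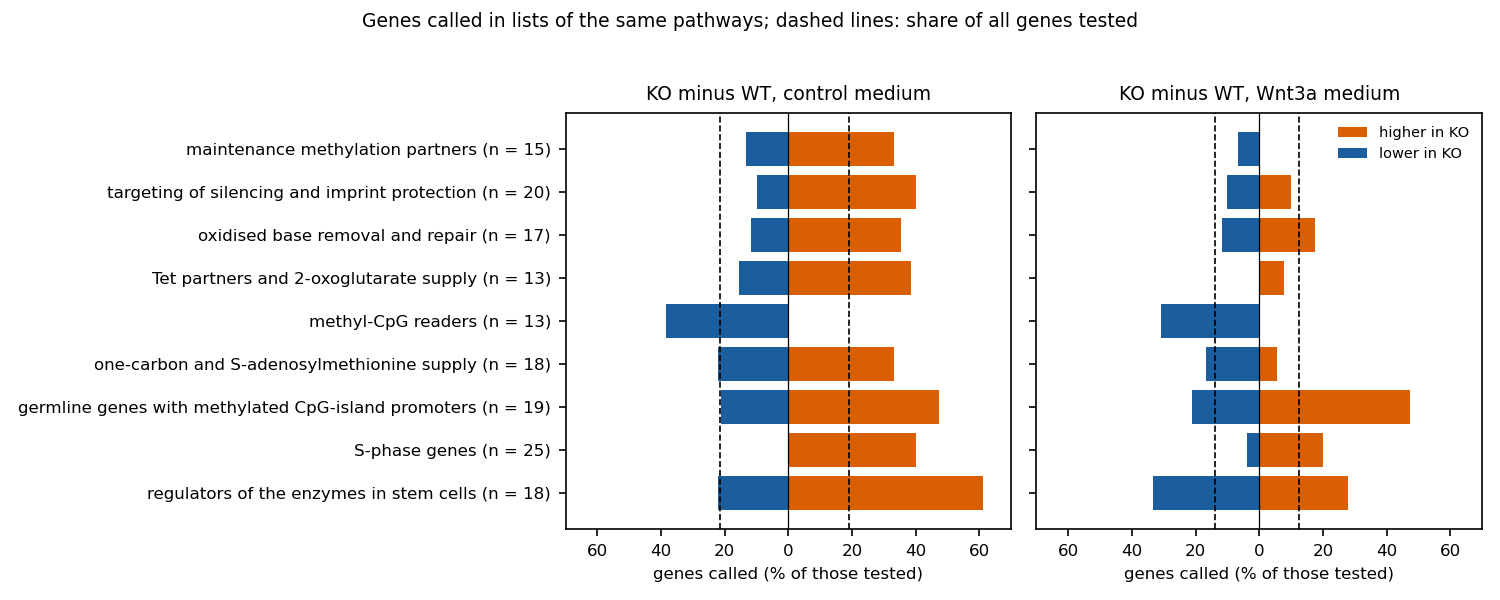
Share of tested genes called higher (right) or lower (left) in KO cells in the 9 lists, in control and in Wnt3a medium; dashed lines mark the shares over all genes tested, 19% and 21.5% in control medium and 12.4% and 13.9% in Wnt3a medium. The bar of the methyl-CpG reader list, which also holds NuRD subunits, runs only to the left in both media. That of the S-phase genes runs only to the right in control medium.

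Some markers of other cell types differed between genotypes as well. The counts below compare with 19% of all genes called higher and 21.5% lower in KO control medium. In Wnt3a medium these shares were 12.4% and 13.9%. The summed level of 8 trophectoderm markers was 14.4 to 15.1 in WT control medium and 11.6 to 11.8 in KO control medium (log2), and 14.1 to 14.4 against 11.4 to 11.5 in Wnt3a medium. The sum was carried by the keratins Krt8 and Krt18, with WT control-medium means of 13.66 and 13.55 and KO means of 9.22 and 8.68. Of the 7 that were tested, 4 were called lower and none higher in KO control medium (Krt8, Krt18, Cdx2 and Gata3), and 5 lower and 1 higher in Wnt3a medium. Eomes went the other way from the keratins, at 0.40 in control medium (adjusted p = 0.172) and 0.68 in Wnt3a medium (adjusted p = 0.0347, lost without any 1 of 4 arrays, up to 0.129), and Elf5 was below the filter level in all groups. The 7 formative and primed epiblast markers summed to 11.7 to 11.8 in WT against 10.2 to 10.7 in KO control medium, and 10.3 to 11.0 against 9.92 to 10.0 with Wnt3a. Of the 6 that were tested, 3 were called lower in KO control medium and none higher, with Pou3f1 at -3.29. Pou3f1 was the brightest of the 7 in WT control medium and weighs most in that sum, with a mean of 10.66 against 7.38 in KO control medium. Otx2 was not called (-0.46, adjusted p = 0.309). Fgf5 was not tested: its mean was near the filter level in WT control medium and below it in the other groups. The 7 fibroblast markers summed to 8.91 to 9.12 and 8.89 to 8.98 in control medium, with Col3a1 and Lum below the filter level in all groups. Of the 5 that were tested, 1 was called higher and 2 lower in KO cells in each medium: in control medium Thy1 rose by 0.86 (adjusted p = 0.000256), Col1a2 fell by 0.65 (adjusted p = 0.0106), and Col1a1 was at least 1.36-fold lower, its KO mean being below the filter level (adjusted p = 0.00211). Primitive endoderm markers, 7 of them, summed to 9.40 to 9.76 in WT and 9.02 to 11.3 in KO control medium, where 1 was called higher, Pdgfra at 1.10 (adjusted p = 0.0243), and 0 to 6 without single arrays. Of the 3 matched two-cell-like markers, Tcstv1 and Tcstv3 were below the filter level in all groups. Cdx2, Gata3, Eomes, Col1a1 and Col1a2 were singled out after their values were seen. The part of any of these cells in the levels of the 8 enzymes was not tested.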

How the data were processed

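Gene expression was measured on 12 Affymetrix arrays, 3 in each of 4 groups of genotype and medium. The authors deposited intensity values on a linear scale, with RMA named in the submitters' processing notes and no version given. Log2 was taken here with no pseudocount.

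The platform annotation named the probe sets: 34945 carry 1 symbol, 932 several and 9160 none listed. A probe set was tested if 3 or more of the 12 arrays exceeded the 40th percentile of the table (5.56 on the log2 scale, an intensity of 47.2). Group means were fitted over all 12 arrays with limma 3.58.1 (lmFit, eBayes) in R 4.3.3, in 5 comparisons, with Benjamini-Hochberg adjustment over 28483 probe sets. The script was tested on simulated data.

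The members and the 9 pathway and 6 marker lists were chosen with earlier results of these data known. Of 226 listed symbols, 25 were not matched. Every member probe set is given. For each list and comparison, up to 2 called genes with the largest change and the largest uncalled one could be named. For likeness, the 3 genes with the highest Pearson r were ranked. With 3 arrays per group, their number limits the precision. Promoter sequences and starts come from RefSeq (GRCm38.p6), where all 8 genes matched. Alternatives were other filters, gene summaries, normalizations, an added 32 before log2, only the arrays compared, a trended robust prior, a replicate block and leaving out each array.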

Additional observations from a re-analysis of the deposited data

Results flagged for a closer look

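The Dnmt1 probe set 1422946_a_at was set aside because all 3 KO arrays lay above the WT arrays in control medium (0.13) and all 3 lay below them in Wnt3a medium (-0.19). Neither difference was called, and the interaction of -0.32 did not pass (limma, adjusted p = 0.127). Such opposite separation was present in 321, or 1.13%, of the tested probe sets.

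The RNAs used as labelling and hybridisation controls differed between the 6 Wnt3a and the 6 control-medium arrays. Wnt3a minus control differences (log2) were 6.70 for dap, 4.09 for thr, 2.82 for phe, 2.68 for lys, 2.56 for bioB, 2.55 for bioC and 1.82 for cre. On the control-medium arrays dap, thr, phe and lys averaged 4.25, 4.92, 4.94 and 4.59, below the filter level of 5.56. Their differences are therefore taken from values under that level. For none of the 7 RNAs did the media overlap.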

How the results depend on the processing

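None of the member values that were called changed direction under any alternative, and of 725 alternative values of called results 689 stayed called. Many alternatives could not change a direction, because they leave the log2 change between a pair of groups as it is. These are the other filters, the trended robust prior, the replicate block, fitting only the arrays compared and leaving out arrays of other groups. They bear on the calls only. Leaving out each array in turn gave 9 to 12 called probe sets (11 with all arrays) for the knockout in control medium, 11 to 14 (12) for Wnt3a in WT cells, 4 to 7 (6) for Wnt3a in KO cells, 5 to 7 (6) for the knockout in Wnt3a medium and 0 to 3 (0) for the interaction. By the brightest probe set the ranges were 4 to 5, 4 to 4, 1 to 3, 3 to 3 and 0 to 1 genes. For the interaction, 1 probe set passed under the stricter filter, 1 under repeated quantile normalization, 1 with 32 added before log2 and 2 with the trended robust prior, and by the brightest probe set 1 gene passed under each of these. The Tet2 probe set 1455300_at then had adjusted p-values of 0.0441, 0.0429, 0.0399 and 0.0292.

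Repeated quantile normalization ended the call of Dnmt1 at 1435122_x_at with Wnt3a in WT cells (0.12, adjusted p = 0.173) and of Uhrf1 at 1415811_at with Wnt3a in KO cells (0.23, adjusted p = 0.0626). It made calls of the fall of Dnmt3b at 1418351_a_at with Wnt3a in WT cells (-0.28, adjusted p = 0.0463) and of the KO excess of Dnmt3a at 1423063_at in Wnt3a medium (0.26, adjusted p = 0.0252). Fitting only the arrays compared ended the knockout call in Wnt3a medium of Dnmt3a at 1460324_at (adjusted p = 0.0679) and Tet2 at 1438781_at (0.067), and in control medium that of Uhrf1 at 1415811_at (0.071), which testing with no filter ended too (0.0563). Median centring made the rise of Dnmt1 at 1447877_x_at with Wnt3a in WT cells a call (0.29, adjusted p = 0.044). It also raised the share of calls that were higher with Wnt3a from 49.0% to 63.2% over all probe sets in WT cells and from 48.1% to 64.1% in KO cells.

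Arrays with the same replicate number did not deviate together (correlations from -0.25 to 0.24), so the numbers were not treated as pairing. With the replicate number as a block, 10, 11 and 6 probe sets were called for the knockout in control medium, Wnt3a in WT cells and Wnt3a in KO cells. The block ended the calls of Uhrf1 at 1415811_at (adjusted p = 0.0575) and Dnmt1 at 1435122_x_at (0.0574) and no other.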
